A study of Ovis aries with 40 samples.

Results

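The E2F and retinoblastoma family was followed as 10 genes, E2F1, E2F2, E2F3, E2F4, E2F5, E2F7, E2F8, RB1, RBL1 and RBL2, in the developing lung of WT sheep and of sheep without CFTR. The members were taken by gene symbol from tables of 24478 genes, and all 10 were present and passed the filter on low counts in every fit. The tissue came from the proximal and the distal lung of American Romney sheep at gestational days 65, 80, 100 and 120 and at term, which the labels give as day 147 and birth. Each of the 20 conditions had 2 RNA-seq libraries, so 40 libraries were compared. WT animals were bred naturally, and WT term lambs were born naturally and lived for a recorded time before tissue was taken. CF animals (CFTR-/-) were clones made by somatic cell nuclear transfer from a single male line of fetal fibroblasts targeted in CFTR exon 2. The loss of CFTR and the cloning therefore cannot be told apart in any comparison of CF with WT. Sex and, at term, the time between birth and tissue collection were not part of any fit and were not separated from genotype here. The proximal and distal libraries of the same number carry the same animal label, both WT day 100 replicates carry a single label, and 1 label is given to both WT day 65 replicate 2 and CF day 100 replicate 2, so the labels hold 18 names for 20 animals by genotype, day and number. With 2 libraries a group, p-values rest on a spread estimated over all groups of a fit and moderated across genes. They draw on few animals, and the 2 WT day 100 libraries of a region may come from 1 animal.

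E2F proteins bind DNA with a DP partner and switch genes of DNA replication and cell division on or off. E2F1, E2F2 and E2F3 are the activators, E2F4 and E2F5 are repressors that work with pocket proteins, and E2F7 and E2F8 are atypical repressors that bind without DP or pocket proteins. The pocket proteins RB1, RBL1 (p107) and RBL2 (p130) hold E2F proteins in check until cyclin-dependent kinases phosphorylate them. RBL2 is known for its abundance in resting cells, whereas E2F1, E2F2, E2F7, E2F8 and RBL1 are themselves E2F targets that cycling cells express.

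Depth differed with genotype and age. The 16 WT libraries of days 65 to 120 held 24670355 to 43700012 counts, the 16 CF libraries of these days 85773994 to 103139483 counts, and the 8 term libraries 115937437 to 126749480 counts. Of the gene counts from 1 to 20, 69.2 to 85.8% were even, so both reads of a pair may have been counted. Levels are given as CPM, counts scaled to the size of the library after TMM normalization. CFTR transcript, the targeted gene's, was 9.58 to 43.8 CPM in WT and 3.65 to 34.9 CPM in CF, and a targeted exon need not remove the transcript. Of the lung markers, NKX2-1 was at 61 to 209 CPM and SFTPC at 148 to 22800 CPM, whereas the airway marker SCGB1A1 had a median of 0.472 CPM and was at 0 in at least 1 library. The second CF proximal library of day 120 stood apart: its log2 values differed from those of its partner by 1.66 (root mean square), against 0.261 to 0.805 in the other 19 pairs, and its 8 epithelial markers summed to 17200 CPM against 3480 CPM in the partner. Bulk tissue cannot tell fewer cells of a type from less RNA per cell.

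By level per transcript length (RPKM), the order of the medians over the 40 libraries was E2F4 (23.1), RBL2 (15.6), E2F5 (13), E2F1 (7.17), E2F3 (5.26), RBL1 (3.48), E2F8 (3.27), RB1 (2.41), E2F2 (2.35) and E2F7 (1.58). Several neighbours in that order changed places between libraries. E2F4 was above RBL2 in 28 of 40 libraries, RBL2 above E2F5 in 26, E2F8 above RB1 in 24 and RB1 above E2F2 in 18, whereas E2F5 was above E2F1 in all 40. The annotated exons of E2F1 added up to only 957 bases, and how its RPKM would change with a longer model was not tested. E2F8 had the widest range of the 10 genes, 41.1-fold from 0.529 to 21.8 CPM, followed by E2F7 at 23.3-fold and E2F1 at 21.2-fold. RB1 had the narrowest range, 2.5-fold, from 12.7 to 31.9 CPM.

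On Oar_v4.0 the activators lie on chromosomes 13 (E2F1, 62455855 to 62477099), 2 (E2F2, 242183432 to 242229532) and 20 (E2F3, 36297538 to 36381350). E2F4 lies on chromosome 14 (34080904 to 34087490) and E2F5 on chromosome 9 (89780550 to 89791422). E2F7 lies on chromosome 3 (112589866 to 112628398) and E2F8 on chromosome 21 (24976553 to 24994777). RB1 lies on chromosome 10 (18436927 to 18555197), RBL1 on chromosome 13 (65468526 to 65531165) and RBL2 on chromosome 14 (21219034 to 21265030). The counts cover annotated exons, and 4 members share a few exon bases with another gene: E2F1 shares 81 with PXMP4, E2F2 shares 69 with ID3, E2F5 shares 22 with C9H8orf59 and E2F8 shares 126 with LOC105610387. These genes were at 3.47 to 24.3 CPM (PXMP4), 49.7 to 172 CPM (ID3), 11.2 to 78.6 CPM (C9H8orf59) and 0 to 0.45 CPM (LOC105610387), and how shared bases were counted is not given in the sources used here.

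The first question was which members changed over gestation in each genotype and region, with an F test over the 5 time points. In this and all later comparisons a call is an adjusted p of 0.05 or less from edgeR's quasi-likelihood test, adjusted by Benjamini-Hochberg across every gene in the fit. In WT proximal lung all 10 members were called, against a background of 40.8% of all genes tested. In WT distal lung 8 were called, all but E2F4 and RB1, against 40.4%, and in CF distal lung the same 8 were called against 33.9%. In CF proximal lung E2F2, E2F8 and RBL1 were called, 3 of 10, against 5.36%, and 6 members had an unadjusted p below 0.05. The CF proximal count depended on single libraries. Leaving out either CF proximal library of day 120 gave 5 calls (E2F1 and E2F7 as well), leaving out the second term library gave 0, and leaving out any of the other 7 libraries gave 1. E2F2 kept its call in 2 of these 10 fits, with adjusted p up to 0.105. DESeq2 gave 6 calls and the replicate block gave 1. Here and below, counts of members from alternative fits, with a library left out, another tool or other pooling, have no share of all genes beside them. A refit can change that share too. In the plot of every library by day, the activators, the atypical repressors and RBL1 are lower at day 120 than at day 65 and RBL2 is higher at term than at day 65.

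**Figure D1:**
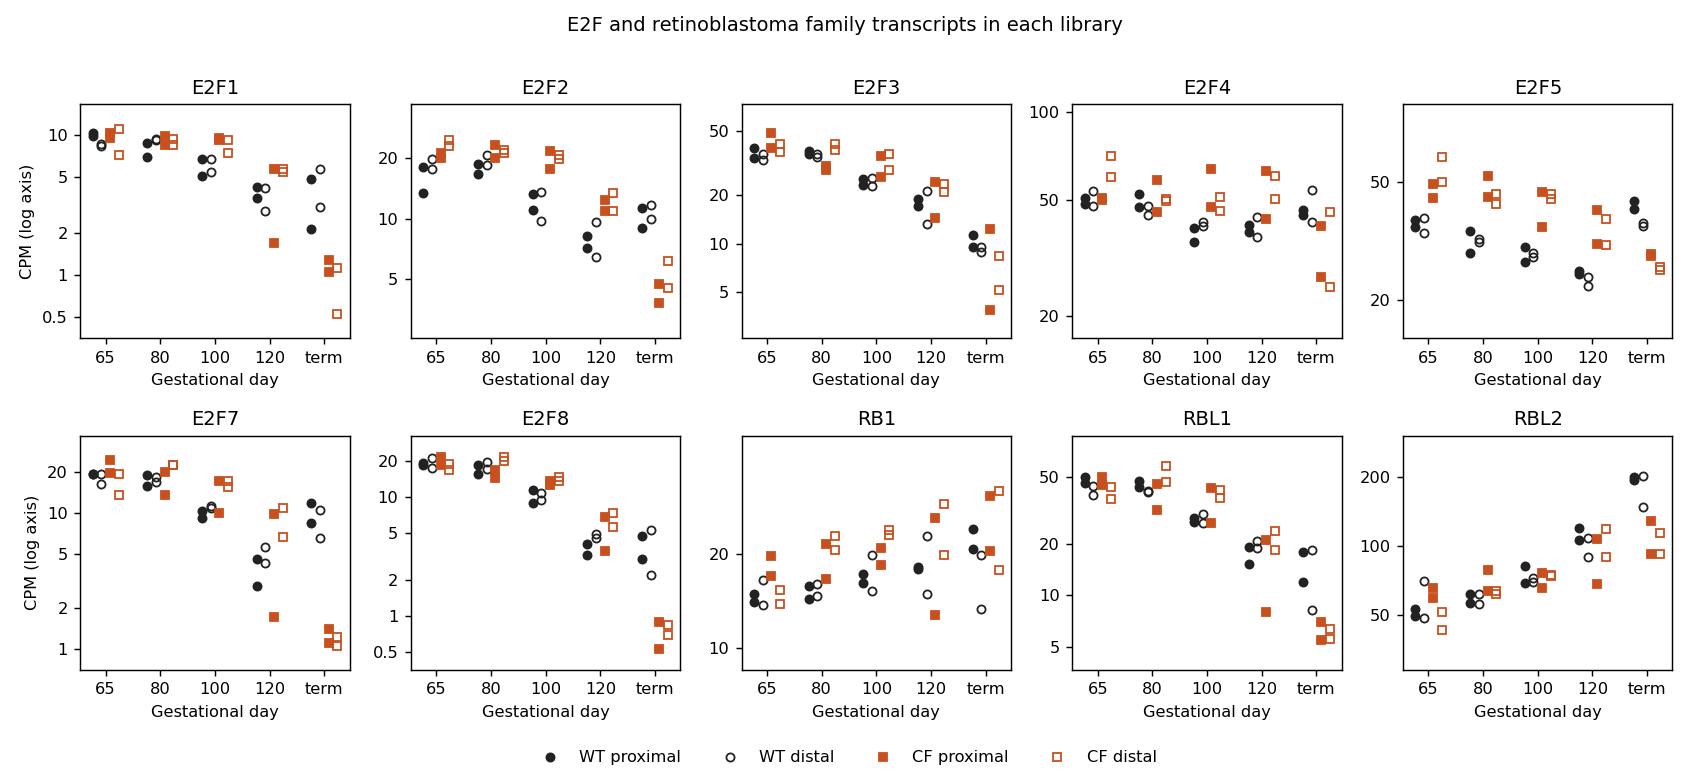
CPM (normalized counts, log axis) of each member in each of the 40 libraries by gestational day, with circles for WT and squares for CF, filled for proximal and open for distal lung. E2F8 goes from 17.0 to 21.5 CPM at day 65 to 0.529 to 5.30 CPM at term, RBL2 goes from 43.0 to 70.1 CPM up to 92.0 to 202 CPM, and RB1 stays between 12.7 and 31.9 CPM.

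The activators were lower at day 120 than at day 65 in both genotypes. E2F1, which drives entry into S phase, was 7.26, 9.76 and 11.1 CPM (lowest, median and highest of the 8 libraries) at day 65 and 1.68, 4.25 and 5.71 CPM at day 120. E2F2 went from 13.4, 20 and 24.7 CPM at day 65 to 6.49, 10.3 and 13.4 CPM at day 120. E2F3 went from 32.7, 37.8 and 48.4 CPM to 13.3, 19.9 and 24.2 CPM. For each of the 3 no library of day 120 reached the lowest library of day 65, though for E2F2 the gap was only from 13.38 to 13.43 CPM. Over days E2F3 was called in both WT time courses (adjusted p = 0.000134 proximal and 0.000833 distal by edgeR's quasi-likelihood test) and kept its call with any 1 library left out. E2F1 was called in both WT time courses but kept its call in only 4 of 10 such fits in each, with adjusted p up to 0.0824 proximal and 0.0900 distal.

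The atypical repressors followed the activators with a larger range. E2F7 and E2F8, which bind E2F sites of S phase genes and lower their transcription late in the cycle, were 13.5, 19.3 and 24.4 CPM and 17.0, 18.9 and 21.5 CPM at day 65. By day 120 they were 1.70, 5.08 and 10.8 CPM and 3.26, 4.71 and 7.30 CPM. No day 120 library reached the lowest day 65 library of either gene. E2F8 was called over days in all 4 time courses, with adjusted p = 0.000267 in WT proximal, 0.00224 in WT distal, 0.00796 in CF proximal and 9.81e-05 in CF distal lung (edgeR's quasi-likelihood test), and of the 40 fits that left out 1 library it lost the call in 1, in CF proximal lung. E2F7 was called in 3 of the 4, with adjusted p = 0.0826 in CF proximal lung.

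The canonical repressors moved less. E2F4, the main E2F of resting cells, had day medians between 43.1 and 50.9 CPM, and its range of 47.6 to 70.8 CPM at day 65 overlapped that of 25.3 to 54.1 CPM at term. Its single call over days, in WT proximal lung (adjusted p = 0.0468 by edgeR's quasi-likelihood test), was lost in all 10 fits that left out a library. E2F5 had a day median of 41.0 CPM at day 65, 27.9 CPM at day 120 and 32.0 CPM at term, and was called over days in 3 of the 4 time courses, with adjusted p = 0.361 in CF proximal lung.

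The pocket proteins went in different directions. RBL1 was 36.8, 44.4 and 49.5 CPM (lowest, median and highest) at day 65 and 5.48, 7.59 and 18.6 CPM at term, with no overlap, and it was called over days in all 4 time courses. In CF proximal lung its adjusted p was 0.0495 by edgeR's quasi-likelihood test, and it kept the call in 2 of 10 fits with a library left out. RBL2 was 43.0, 52.0 and 70.1 CPM at day 65 and 92.0, 138 and 202 CPM at term, also with no overlap, and was called in 3 of the 4 (adjusted p = 0.402 in CF proximal lung). RB1, the retinoblastoma protein itself, had day medians of 15.1 to 20.6 CPM. RB1 was called in WT proximal lung (adjusted p = 0.0467 by edgeR's quasi-likelihood test), a call lost in all 10 fits with a library left out, and was not called in the other 3 time courses.

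Steps between neighbouring time points before day 120 gave few calls, as they did over all genes. None of the 10 members was called from day 65 to 80, against 0.011% of genes in WT proximal, 0.0164% in WT distal and 0% in CF proximal and CF distal lung, and none had an unadjusted p below 0.05 or was called by DESeq2. From day 80 to 100 none was called against 1.94%, 1%, 0% and 0% in the same order, with 7, 4, 0 and 1 members below an unadjusted p of 0.05. DESeq2 called E2F3 and RBL1 in WT proximal lung in that step. From day 100 to 120 the WT proximal lung had 3 calls against 2.67% of genes: E2F7 fell by 1.35 ± 0.28 (log2 fold change ± SE, adjusted p = 0.0392), E2F8 fell by 1.47 ± 0.27 (adjusted p = 0.0256) and RBL2 rose by 0.60 ± 0.12 (adjusted p = 0.0325), all by edgeR's quasi-likelihood test. Those 3 calls were weak. Each was lost when any of the 4 libraries of days 100 and 120 was left out, and each was lost when the WT day 100 libraries, which share an animal label, were summed; the replicate block, which adds the replicate number to the fit, ended the call of E2F7. From day 100 to 120 no member was called in WT distal (2.49% of genes), CF proximal (0.0203%) or CF distal lung (0.928%), where 6, 4 and 5 members had an unadjusted p below 0.05 and DESeq2 called E2F7 and E2F8, none, and E2F8 and RBL1. In CF proximal lung this step depended on which library of day 120 was left out. Without the first, the log2 change was -2.46 ± 0.43 for E2F1, -2.98 ± 0.55 for E2F7, -1.88 ± 0.44 for E2F8 and -2.12 ± 0.43 for RBL1. Without the second it was -0.70 ± 0.38, -0.46 ± 0.47, -0.94 ± 0.42 and -0.71 ± 0.40.

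The interval from day 120 to term separated the genotypes. At day 120, E2F8 was 4.02 and 3.26 CPM in WT proximal, 4.91 and 4.5 in WT distal, 6.82 and 3.53 in CF proximal, and 7.30 and 5.61 CPM in CF distal lung. At term, E2F8 was 4.69 and 2.99 CPM in WT proximal, 5.30 and 2.21 in WT distal, 0.883 and 0.529 in CF proximal, and 0.696 and 0.847 CPM in CF distal lung. The 4 CF term libraries were thus below every other library of the series, and the WT term libraries overlapped those of WT day 120. E2F7 was 4.58 and 2.87 CPM in WT proximal, 4.25 and 5.57 in WT distal, 9.78 and 1.70 in CF proximal, and 10.8 and 6.62 CPM in CF distal lung at day 120. At term, E2F7 was 8.42 and 11.8 CPM in WT proximal, 10.5 and 6.55 in WT distal, 1.39 and 1.10 in CF proximal, and 1.21 and 1.05 CPM in CF distal lung. E2F7 was thus higher at term than at day 120 in each WT region and lower in each CF region, without overlap.

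E2F1, the activator, was 3.55 and 4.28 CPM in WT proximal, 4.21 and 2.87 in WT distal, 5.71 and 1.68 in CF proximal, and 5.71 and 5.45 CPM in CF distal lung at day 120. At term, E2F1 was 4.87 and 2.12 CPM in WT proximal, 5.69 and 3.04 in WT distal, 1.05 and 1.28 in CF proximal, and 1.11 and 0.524 CPM in CF distal lung, so the WT values overlapped their day 120 values and the CF values lay below theirs. E2F2 was 11.3, 8.97, 11.8 and 9.97 CPM in the 4 WT term libraries and 4.76, 3.83, 4.52 and 6.19 CPM in the 4 CF term libraries. E2F3 did not separate the genotypes in this way. Its term values were 9.58, 11.3, 9.56 and 8.89 CPM in WT and 12.2, 3.88, 8.39 and 5.13 CPM in CF, all below the lowest day 120 value of 13.3 CPM.

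In the test of term against day 120, WT proximal lung had 4 calls against a background of 24.6% of genes. RBL2 rose by 0.81 ± 0.12 (adjusted p = 0.00181), E2F5 by 0.75 ± 0.13 (adjusted p = 0.00446) and E2F7 by 1.44 ± 0.28 (adjusted p = 0.00604), while E2F3 fell by 0.79 ± 0.15 (adjusted p = 0.00662), in log2 units by edgeR's quasi-likelihood test. All 4 kept their call with any 1 library left out, but E2F3 lost it in the fit of all 40 libraries (adjusted p = 0.146 by edgeR). WT distal lung had 3 of these calls against 25.8% of genes: RBL2 rose by 0.80 ± 0.20 (adjusted p = 0.0215), E2F5 rose by 0.62 ± 0.12 (adjusted p = 0.00846) and E2F3 fell by 0.91 ± 0.21 (adjusted p = 0.0148; edgeR's quasi-likelihood test). E2F7 had a log2 difference of 0.77 ± 0.26 there and missed the threshold (adjusted p = 0.0563), while DESeq2 called it. E2F3 lost its call in the fit of all 40 libraries (adjusted p = 0.0803 by edgeR). Over the 10 fits with a library left out the log2 change of E2F3 ranged from -1.22 to -0.542. Without the first WT distal library of day 120 none of the 3 was called, with adjusted p of 0.0696 for E2F5, 0.0964 for E2F3 and 0.14 for RBL2, and RBL2 was also lost without the second day 120 library or the first term library.

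CF distal lung had 6 calls from day 120 to term, all lower, against 23% of genes called, with 11.5% of all genes tested called lower and as many called higher. E2F8 fell by 3.08 ± 0.28 (8.43-fold, adjusted p = 0.000634), E2F7 fell by 2.96 ± 0.33 (7.78-fold, adjusted p = 0.00162), E2F1 fell by 2.78 ± 0.41 (6.85-fold, adjusted p = 0.00484) and RBL1 fell by 1.84 ± 0.23 (3.59-fold, adjusted p = 0.00244), and E2F3 fell by 1.72 ± 0.27 (adjusted p = 0.00599) and E2F2 fell by 1.19 ± 0.24 (adjusted p = 0.0117; edgeR's quasi-likelihood test). All 6 calls were kept with any 1 library left out, and E2F1 moved to -3.43 without the first CF distal term library. RB1 and RBL2 had log2 differences of 0.01 ± 0.31 and -0.03 ± 0.21 in the same fit. In CF proximal lung none of the 10 was called, against 0.356% of genes, while 6 had an unadjusted p below 0.05 and DESeq2 called E2F1, E2F2, E2F7 and E2F8. The differences there were -2.90 ± 0.46 for E2F8 (adjusted p = 0.0519), -2.23 ± 0.74 for E2F7 and -1.70 ± 0.55 for E2F1 (edgeR's quasi-likelihood test). Leaving out the CF proximal library of day 120 that stood apart gave calls for E2F1 (-2.33 ± 0.36), E2F7 (-3.00 ± 0.45) and E2F8 (-3.30 ± 0.40). Leaving out its partner gave calls for E2F2 (-1.57 ± 0.32) and E2F8 (-2.35 ± 0.40), while E2F1 was at -0.57 ± 0.38 and E2F7 at -0.48 ± 0.47. A fit of all 40 libraries together called 6 members.

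**Figure D2:**
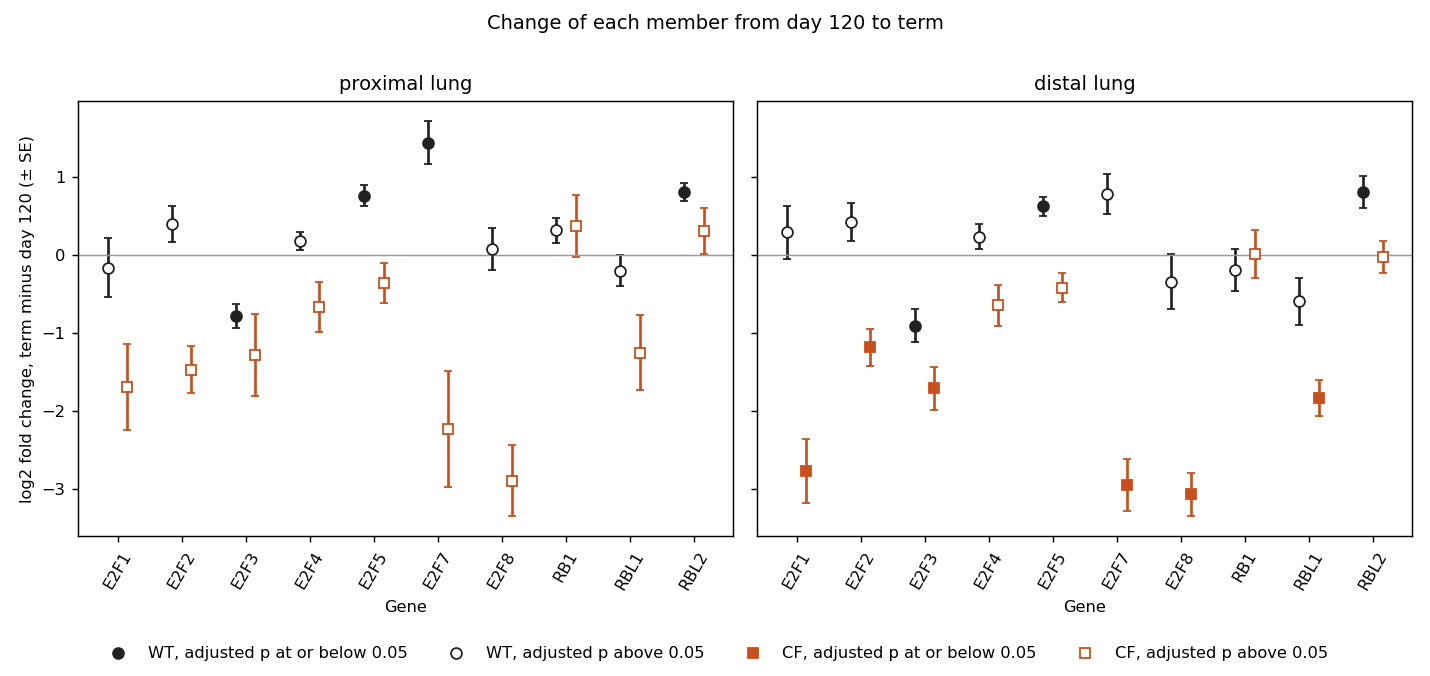
Log2 fold change of each member from day 120 to term, with its standard error, in proximal and distal lung, for WT (circles) and CF (squares), filled where the adjusted p is 0.05 or less. In distal lung 6 members were lower at term in CF, and in WT RBL2 and E2F5 were higher and E2F3 lower.

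Whether the step to term differed between the genotypes was tested directly, as the change in CF minus the change in WT. In distal lung 5 of 10 members were called, all with a lower change in CF, against 9.31% of genes, with 5.1% of all genes tested called lower. The difference in log2 change was -3.72 ± 0.41 for E2F7 (adjusted p = 0.000393), -3.05 ± 0.54 for E2F1 (adjusted p = 0.00447), -2.72 ± 0.45 for E2F8 (adjusted p = 0.00334), -1.60 ± 0.34 for E2F2 (adjusted p = 0.0111) and -1.04 ± 0.21 for E2F5 (adjusted p = 0.00842; edgeR's quasi-likelihood test). E2F7, E2F1, E2F8 and E2F5 kept the call in all 20 fits with a library left out, and E2F2 lost it without the second WT distal library of day 120 (adjusted p = 0.0576). RBL1 (-1.24 ± 0.39, adjusted p = 0.0583), RBL2 (-0.82 ± 0.28), E2F4 (-0.88 ± 0.32), E2F3 (-0.79 ± 0.34) and RB1 (0.22 ± 0.43) were not called, though DESeq2 called RBL1. E2F8 moved to -1.97 without the first WT distal term library and E2F1 to -3.73 without the first CF distal term library.

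In proximal lung 3 members were called against 1.78% of genes, E2F7 (-3.64 ± 0.82, adjusted p = 0.0402), E2F8 (-2.94 ± 0.51, adjusted p = 0.0118) and E2F2 (-1.84 ± 0.36, adjusted p = 0.0204; edgeR's quasi-likelihood test). E2F7 lost its call in 15 of 20 fits with a library left out, with the replicate block and after thinning to equal depth. E2F8 lost it without the second WT proximal library of day 120 (adjusted p = 0.0859) or the second CF proximal term library, and E2F2 without either WT proximal library of day 120, the first WT proximal term library or the second CF proximal term library (adjusted p up to 0.135). Without the CF proximal library that stood apart, E2F1, E2F2, E2F7, E2F8 and RBL1 were called and the value of E2F7 was -4.42 ± 0.51. Without its partner E2F7 was at -1.88 ± 0.51, E2F2, E2F4, E2F5, E2F7 and E2F8 were called, and E2F1 (-0.37 ± 0.56) and RBL1 (-0.15 ± 0.42) were not. For the 3 earlier intervals none of the 10 members was called in either region, none had an unadjusted p below 0.05 and DESeq2 called none. Without the first CF proximal library of day 120, RBL1 was called in the proximal step from day 100 to 120. The backgrounds were 0% in all but the distal change from day 80 to 100, where 0.00996% of genes were called. Each of these tests shares its libraries with the comparisons of time points and of genotypes.

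Before term E2F5 was the single member called between the genotypes by edgeR's quasi-likelihood test, in distal lung, a share near that of all genes. E2F5, a repressor that binds RBL2 and RBL1, was 50.1 and 60.9 CPM in CF against 37.9 and 33.7 CPM in WT distal lung at day 65, 42.3 and 45.5 against 31.5 and 32.1 CPM at day 80, 43.9 and 45.7 against 28.9 and 27.9 CPM at day 100, and 30.8 and 37.6 against 22.3 and 24.0 CPM at day 120. Both CF libraries were above both WT libraries at each of these days. The log2 difference was 0.64 ± 0.15 at day 65 (1.56-fold, adjusted p = 0.0220), 0.64 ± 0.15 at day 100 (adjusted p = 0.0227) and 0.57 ± 0.15 at day 120 (adjusted p = 0.0406), and missed the threshold at day 80 (0.46 ± 0.15, adjusted p = 0.078; edgeR's quasi-likelihood test). The members called were 1 of 10 at day 65, 100 and 120, against 5.23, 5.3 and 4.38% of genes, and none of 10 at day 80 against 5.92%. DESeq2 called E2F5 at all 4 days, with E2F2 as well at day 100 and E2F7 as well at day 120, and the fit of all 40 libraries called E2F5 at days 65 and 100 and no member at days 80 and 120. Smooth muscle markers moved with genotype at some of these days. Of 5 (ACTA2, MYH11, DES, ACTG2 and CNN1), 4, 4, 0 and 3 were called higher in CF distal lung at days 65, 80, 100 and 120. Of all genes 4.36, 4.11, 3.96 and 3.3% were called higher at these days. The median log2 differences of the markers were 1.69, 1.68, 0.18 and 1.34. The part of these markers in the E2F5 difference was not tested. Depth was confounded with genotype at these ages. After thinning every library to the same total, E2F5 kept its call at days 65 and 100 and lost it at day 120. The call of day 65 was lost without either WT library of that day or the second CF library (adjusted p up to 0.197), and that of day 100 without any of its 4 libraries (adjusted p up to 0.208) or with the WT day 100 libraries summed. The call of day 120 was lost in 17 of 20 fits with a library left out.

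In proximal lung no member was called before term, against 0.167% of genes at day 65, 0.0885% at day 80, 0.383% at day 100 and 1.35% at day 120. By edgeR's quasi-likelihood test 0, 1, 3 and 2 members had an unadjusted p below 0.05 at these days, and DESeq2 called none. The fit of all 40 libraries called E2F5 at days 80 and 120. The E2F5 differences were 0.36 ± 0.20, 0.62 ± 0.20, 0.51 ± 0.20 and 0.52 ± 0.20 in log2 units, in the order of days. E2F5 was 49.3 and 44.2 CPM in CF against 35.4 and 37.2 CPM in WT proximal lung at day 65, and both CF libraries were above both WT libraries at each of the 4 days there too. Without the first CF proximal library of day 120, the differences at day 120 were 0.70 ± 0.21 for E2F5, -1.12 ± 0.34 for RBL1 and -0.73 ± 0.23 for RBL2. Without the second they were 0.32 ± 0.21, 0.28 ± 0.32 and -0.09 ± 0.23.

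At term several members were lower in CF than in WT, E2F2, E2F7, E2F8 and RBL2 in both regions. In distal lung 7 of 10 members were called, all lower in CF, against 15.2% of genes, with 7.57% of all genes tested called lower. The log2 difference of CF minus WT was -2.89 ± 0.30 for E2F7 (7.39-fold lower, adjusted p = 6.56e-05), -2.38 ± 0.39 for E2F1 (5.22-fold lower, adjusted p = 0.00145) and -2.25 ± 0.33 for E2F8 (4.75-fold lower, adjusted p = 0.000662; edgeR's quasi-likelihood test). These 3 kept their call in all 20 fits with a library left out, but E2F8 moved to -1.52 without the first WT distal term library and E2F1 to -3.07 without the first CF distal term library. It was -1.14 ± 0.28 for RBL1 (adjusted p = 0.0139), -0.995 ± 0.24 for E2F2 (adjusted p = 0.0134), -0.73 ± 0.20 for RBL2 (adjusted p = 0.0233) and -0.46 ± 0.15 for E2F5 (adjusted p = 0.0458), by the same edgeR test. The first WT distal term library had more RBL1, RBL2 and E2F2 than the second. Without it RBL1 (-0.465, adjusted p = 0.211), RBL2 (adjusted p = 0.187) and E2F2 (adjusted p = 0.0706) were not called, RBL1 was also lost without the second CF term library and RBL2 without the first, and E2F5 lost its call in 14 of 20 such fits and after thinning. RB1, with a log2 difference of 0.61 ± 0.30, E2F3 (-0.42 ± 0.24) and E2F4 (-0.42 ± 0.23) were not called.

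In proximal lung at term 4 members were called, all lower in CF, against 6.09% of genes, with 3.49% of all genes tested called lower. The log2 difference was -3.02 ± 0.61 for E2F7 (8.1-fold lower, adjusted p = 0.0111), -2.44 ± 0.37 for E2F8 (5.42-fold lower, adjusted p = 0.00237), -1.24 ± 0.25 for E2F2 (adjusted p = 0.0125) and -0.84 ± 0.23 for RBL2 (adjusted p = 0.0425; edgeR's quasi-likelihood test). E2F8 kept its call in all 20 fits with a library left out. E2F7 lost it without the second WT or the second CF proximal term library (adjusted p up to 0.106), E2F2 without the first WT or the second CF proximal term library (adjusted p up to 0.0986), and RBL2 in 18 of 20 such fits, with the replicate block and with RLE scaling. E2F1 (-1.59, adjusted p = 0.0776), RBL1 (-1.27 ± 0.38, adjusted p = 0.0679) and E2F5 (-0.56 ± 0.20, adjusted p = 0.124) missed the threshold, and all 3 passed it without the CF proximal library of day 120 that stood apart, when 7 members were called. RBL1 was 18.1 and 12 CPM in WT proximal, 18.6 and 8.20 in WT distal, 6.98 and 5.48 in CF proximal, and 5.54 and 6.38 CPM in CF distal lung. RBL2 was 194 and 200.4 CPM in WT proximal, 202 and 148 in WT distal, 92.5 and 128 in CF proximal, and 92.0 and 114 CPM in CF distal lung. For both genes every CF term library was below every WT term library.

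**Figure D3:**
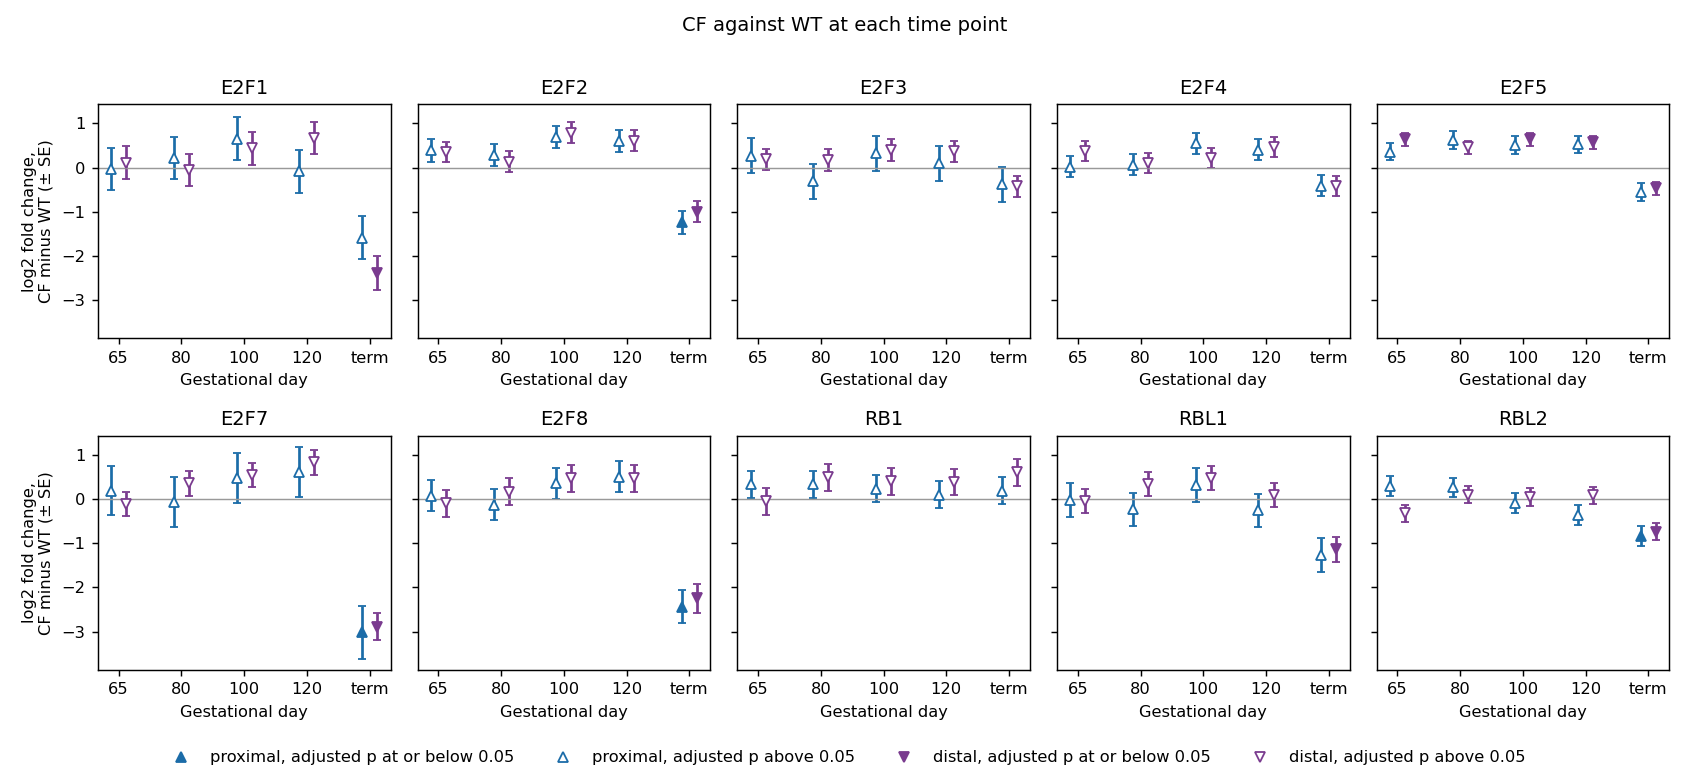
Log2 difference between CF and WT at each time point, with its standard error, for each member, in proximal (upward triangles) and distal lung (downward triangles), filled where the adjusted p is 0.05 or less. Filled points lie at term for E2F1, E2F2, E2F5, E2F7, E2F8, RBL1 and RBL2, all below 0, and before term for E2F5 in distal lung, all above 0.

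Markers of several cell types also differed at term, among them those of smooth muscle and leukocytes. The 5 smooth muscle markers summed to 779 and 494 CPM in WT proximal and 804 and 754 CPM in WT distal lung, against 438 and 213 CPM in CF proximal and 368 and 232 CPM in CF distal lung. Of these 5, 3 were called lower in CF proximal and 4 in CF distal lung, against 3.49 and 7.57% of all genes. The median log2 differences of the 5 were -1.06 and -1.60. From day 120 to term 3 of 5 were called higher in each WT region, against 13.5% of all genes in each. In that step 1 was called lower in CF proximal and 4 in CF distal lung, against 0.279 and 11.5% of all genes. The difference in change was called lower for 3 of 5 in proximal and 4 of 5 in distal lung, against 1.19 and 5.1% of all genes. The medians were -2.39 and -2.94. The lowest level of any of the 5 in a library was 3.65 CPM (CNN1). The 10 leukocyte markers (PTPRC, CD68, MARCO, S100A8 and others) summed to 536 and 918 CPM in WT proximal and 430 and 968 CPM in WT distal lung at term, against 101 and 245 CPM in CF proximal and 132 and 312 CPM in CF distal lung, while the sums of days 65 to 120 were 48.6 to 98.7 CPM. Of the 10, 3 were called lower in CF proximal and 2 in CF distal lung at term and none higher, against 3.49 and 7.57% of all genes called lower. MARCO, CD5L, MS4A1 and S100A8 were at 0 in at least 1 library. The difference in change from day 120 was called lower for 1 of 10 leukocyte markers in each region, against 1.19% of all genes in proximal and 5.1% in distal lung. The medians were -1.07 in proximal and 0.89 in distal lung. Of 7 markers of mesenchyme 2 were called higher in CF in each region at term, against 2.6 and 7.65% of all genes. The medians were 0.74 in proximal and 0.00 in distal lung. Of 7 markers of erythroid precursors tested 1 was called higher in CF proximal and 2 in CF distal lung, against the same 2.6 and 7.65%. In the distal difference in change 4 erythroid markers were called higher (median 3.94), against 4.21% of all genes. Within CF distal lung, from day 120 to term, where 6 members fell and 11.5% of all genes were called in each direction, 8 of 10 leukocyte and 6 of 8 epithelial markers were called higher, 2 of 7 mesenchyme markers lower and 1 higher, and 2 of 7 erythroid markers lower. In the WT proximal and distal lung 7 and 6 leukocyte and 7 and 5 epithelial markers were called higher, against 13.5% of all genes in each region. There 5 and 4 mesenchyme and 6 and 6 erythroid markers were called lower, against 11.1 and 12.3% of all genes. The part of these cell types in the differences of the family was not tested.

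Activators were set against repressors within each library, as the difference of mean log2 RPKM between groups of members. E2F1, E2F2 and E2F3 together stood below E2F4 and E2F5 in all 40 libraries, with a median difference over 8 libraries of -1.65 at day 65, -1.56 at day 80, -1.80 at day 100, -2.30 at day 120 and -3.33 at term. At term this difference was -3.21 to -2.50 in the 4 WT libraries and -3.72 to -3.45 in the 4 CF libraries, without overlap. The atypical repressors E2F7 and E2F8 stood below the activators throughout. Their difference from the activators had a median of -0.81 at day 65 and -1.72 at day 120, and at term was -1.56 to -0.81 in WT and -2.72 to -2.24 in CF, again without overlap. Between the pocket proteins, RBL1 minus RBL2 went from a median of -1.12 at day 65 through -2.11 at day 100 to -4.92 at term, with -5.02 to -4.27 in WT and -5.40 to -4.58 in CF, which overlap.

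Within the atypical pair, E2F7 minus E2F8 was -1.33 to -0.42 in all libraries before term but the CF proximal one that stood apart, at -2.04. At term it was -0.14 to 1.00 in WT and -0.67 to 0.08 in CF. These balances were described and not tested.

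**Figure D4:**
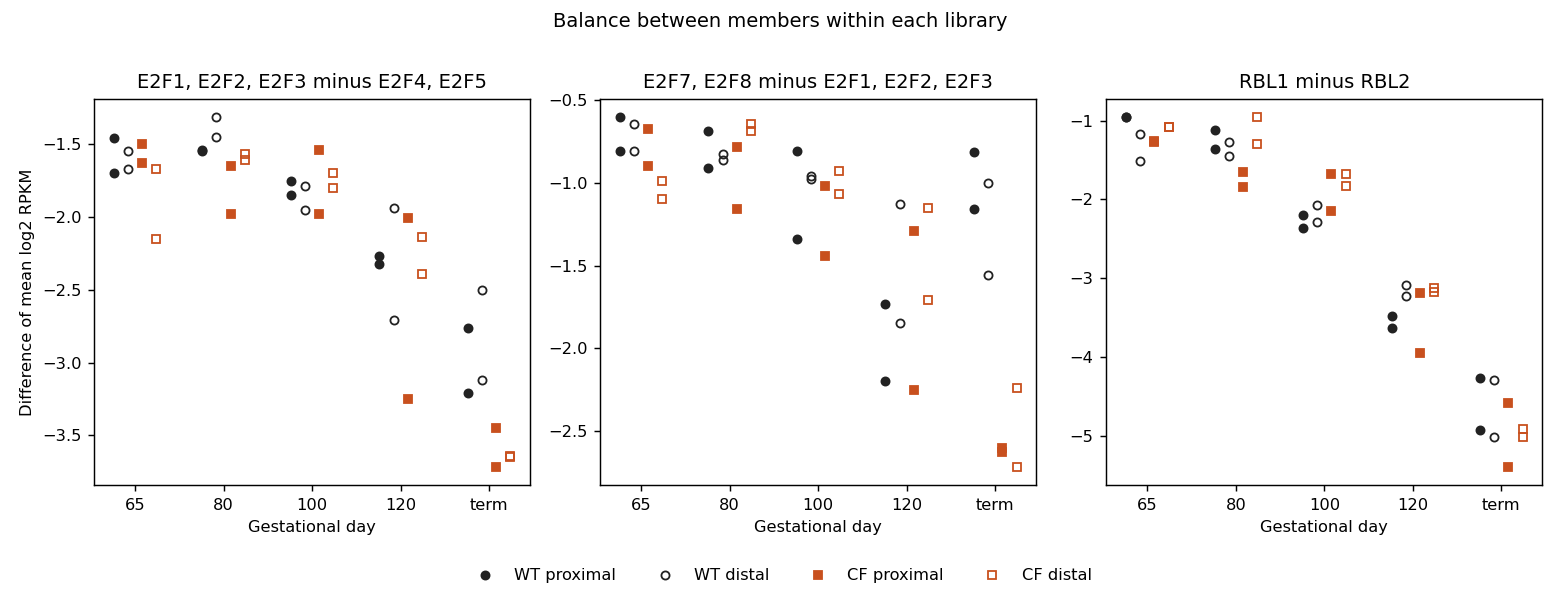
Difference of mean log2 RPKM between groups of members in each library by gestational day, with circles for WT and squares for CF, filled for proximal and open for distal lung. The activators lie further below E2F4 and E2F5 at term (-3.72 to -2.50) than at day 65 (-2.15 to -1.46), and RBL1 lies further below RBL2 (-5.40 to -4.27 against -1.51 to -0.95).

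No member was called between proximal and distal lung. In the fit of all 40 libraries none of the 10 passed at any of the 5 time points, where 0% of genes were called, or in the mean over the 5, where 0.0193% were called, and in each of these 6 contrasts no member had an unadjusted p below 0.05 by edgeR's quasi-likelihood test or was called by DESeq2. The differences of distal minus proximal lung, averaged over the 5 time points, were between -0.06 ± 0.07 (RBL2) and 0.13 ± 0.10 (E2F8) in log2 units. With the animal as a replicate block no member was called. Leaving out the first CF animal of day 120 gave 1 call, E2F7 at day 120, where the remaining CF proximal library is the one that stood apart.

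The genes around the family were read as 5 lists. Of 27 S phase targets such as MCM2, CDC6 and RRM2, 26 were called over days in WT proximal, 26 in WT distal, 19 in CF proximal and 25 in CF distal lung, and of 18 genes of G2 and M phase such as CCNB1, TOP2A and MKI67, 18, 18, 16 and 18, against 40.8, 40.4, 5.36 and 33.9% of all genes. From day 120 to term 21 S phase targets and 17 G2 and M phase genes were lower in CF distal lung, against 11.5% of all genes called lower, with median log2 changes over the lists of -1.42 and -2.35 beside -0.06 over all genes. In WT distal lung 2 G2 and M phase genes, BUB1 and CDC20, were higher, against 13.5% of all genes called higher, and the medians of the S phase and the G2 and M phase lists were 0.00 and -0.07. In CF distal lung the log2 change was -2.59 ± 0.18 for RRM2, which makes deoxynucleotides, -2.72 ± 0.24 for BRCA1, which acts in DNA repair, and -3.76 ± 0.24 for TOP2A, which untangles chromosomes.

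At term 20 of 27 S phase targets and 17 of 18 G2 and M phase genes were lower in CF than in WT distal lung, and 17 and 18 in proximal lung, against 7.57% of all genes called lower in distal and 3.49% in proximal lung. None was higher. The median log2 differences were -1.26 and -2.27 in distal and -1.16 and -2.44 in proximal lung. The G2 and M phase list summed to 524 and 354 CPM in WT proximal and 556 and 268 CPM in WT distal lung at term, against 79.4 and 68.4 CPM in CF proximal and 77.4 and 94.4 CPM in CF distal lung. At day 65 the sums were 1400 to 1810 CPM over both genotypes.

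Among the 11 DP partners and members of the MuvB complex, which represses cell cycle genes with RBL2 or activates them with MYBL2, FOXM1 and MYBL2 were lower in CF at term in both regions. Before term, at day 120, MYBL2 (0.88 ± 0.19) and CDK6, a G1 kinase (1.05 ± 0.27), were higher in CF distal lung. They were 1 of 11 and 1 of 9 in their lists, beside 3.3% of all genes called higher. PLK1, a mitotic kinase (0.64 ± 0.15), and EZH2 of the S phase list (0.74 ± 0.15) were higher there too. EZH2 was also higher in CF distal lung at days 80 (0.65 ± 0.15) and 100 (0.70 ± 0.15) and in CF proximal lung at day 120 (1.04 ± 0.22). At term the log2 difference for FOXM1 was -2.68 in distal and -3.16 ± 0.66 in proximal lung, and for MYBL2 it was -1.06 and -1.01 ± 0.22. It was -1.33 ± 0.31 for TFDP1, a DP partner, in distal lung and -1.49 ± 0.37 for MYBL1 in proximal lung. Over the list 3 of 11 were called in each region, all lower, against 3.49% of all genes called lower in proximal and 7.57% in distal lung.

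Of 9 G1 cyclins and kinases, 4 were lower and 1 higher in CF distal lung at term, and 2 were lower in proximal lung, against 7.57% of all genes lower and 7.65% higher in distal and 3.49% lower in proximal lung. CCNE1, the cyclin E that E2F induces, had a log2 difference of -1.53 ± 0.40 in distal and -1.92 in proximal lung, and CDK2 was 0.66 ± 0.17 higher in distal lung. Of 6 CDK inhibitors tested, CDKN1C (p57) was higher in CF at term, by 2.76 ± 0.45 in distal and 2.75 ± 0.61 in proximal lung, and CDKN1B (p27) by 1.32 ± 0.30 in distal lung, so 2 of 6 were called higher in distal and 1 in proximal lung, against 7.65 and 2.6% of all genes. In distal lung the step to term was called different for 2 of 6 inhibitors, both higher in CF, against 4.21% of all genes called higher. CDKN1C fell by 1.45 ± 0.16 in WT and rose by 1.90 ± 0.53 in CF. Its difference in change was 3.34 ± 0.61 (adjusted p = 0.00538 by edgeR's quasi-likelihood test), and that of CDKN1B was 1.85 ± 0.42 (adjusted p = 0.0164, same test). In proximal lung the difference in change of CDKN1C was 1.73 ± 0.82 (adjusted p = 0.327, same test), and none of the 6 inhibitors was called. CDKN1A (p21), a stress-induced inhibitor, rose from day 120 to term in WT proximal (2.91 ± 0.49), WT distal (2.42 ± 0.70) and CF distal lung (2.40 ± 0.70).

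**Figure D5:**
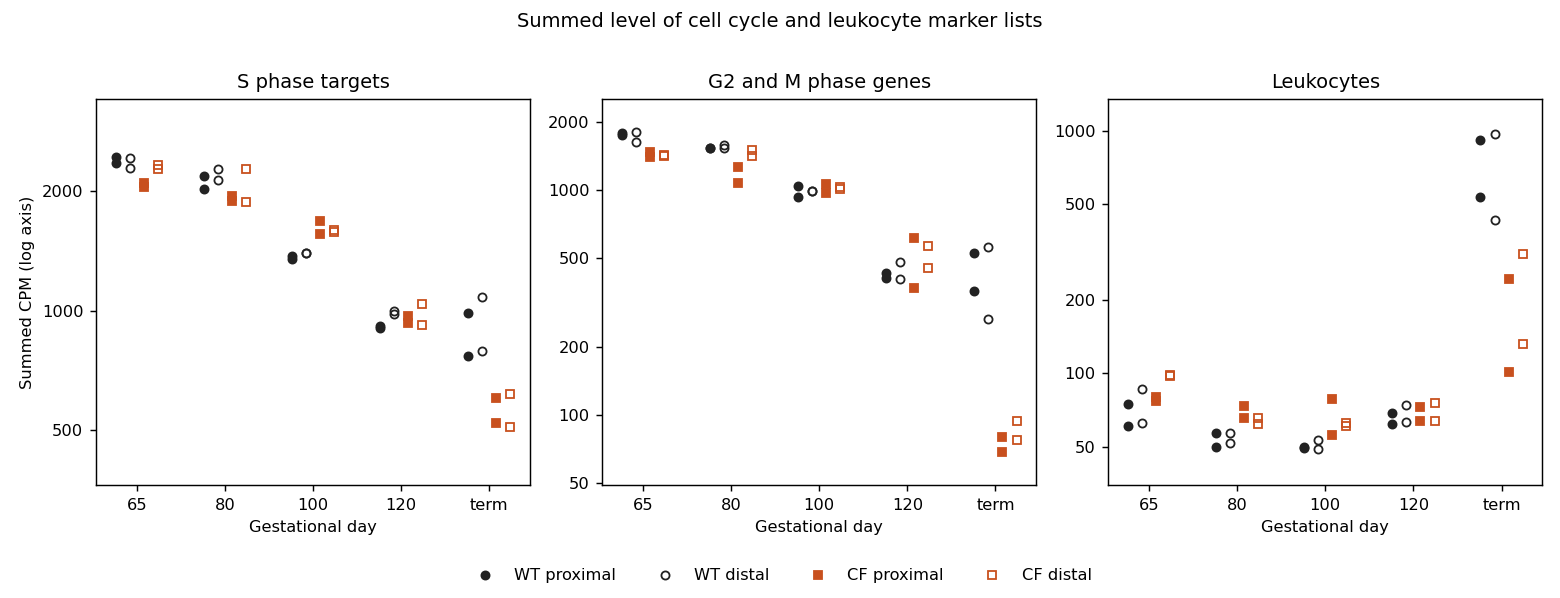
Summed CPM (log axis) of 27 S phase targets, 18 G2 and M phase genes and 10 leukocyte markers in each library by gestational day, with circles for WT and squares for CF, filled for proximal and open for distal lung. At term the G2 and M phase sums are 68.4 to 94.4 CPM in CF and 268 to 556 CPM in WT, and the leukocyte sums are 101 to 312 CPM and 430 to 968 CPM.

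The genes whose level followed each member most closely, by Pearson r of log2 CPM over the 40 libraries among 14245 genes, were listed for description. The libraries share ages, depth and tissue, so r describes this series and has no p. The 3 nearest to E2F8 were KIF15 (0.994), KIF11 (0.989) and CDC6 (0.988), and those to RBL1 were FANCI (0.986), GINS1 and KIF15 (both 0.978), which are genes of mitosis, DNA repair and replication. Those nearest to E2F7 were IQGAP3 (0.974), STIL and ARHGAP11A (both 0.952), to E2F2 ARHGEF39 (0.959), MYBL2 (0.954) and RAD54L (0.952), and to E2F1 LOC101123541 (0.961), LOC106990166 and FOXM1 (both 0.960). E2F3 was nearest to VASH2 (0.966), MEGF9 and FAT3 (both 0.961). RBL2 was nearest to PDXDC1 (0.961), SGMS2 (0.953) and the sodium channel subunit SCNN1A (0.946). The closest genes to E2F4 (MBD3, RRP7A and PRR3), E2F5 (SLC29A2, PCBP4 and P4HA3) and RB1 (FBXO11, LOC101110160 and KIAA1217) had r between 0.842 and 0.914. Among the members, E2F8 and RBL1 were the closest pair (0.974), E2F7 and E2F8 had 0.936 and E2F1 and E2F8 had 0.944, whereas RBL2 had -0.771 with E2F3 and -0.669 with E2F8.

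Under the study's stricter limits, an adjusted p of 0.001 or less and, for a contrast, a log2 fold change of at least 0.58, fewer members were called. Over days RBL1, RBL2, E2F3 and E2F8 were called in WT proximal lung (10.6% of genes), E2F3 in WT distal lung (7.48%) and RBL1, E2F7 and E2F8 in CF distal lung (3.59%). E2F8 was called from day 120 to term in CF distal lung (0.338%), E2F7 and E2F8 between CF and WT distal lung at term (1.25%), and E2F7 in the difference of the step to term in distal lung (0.189%).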

How the data were processed

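Per the paper's methods and the submitters' processing notes, the authors prepared oligo-dT libraries, aligned reads to Oar_v4.0 with STAR (version 2.6 in the notes, a later version in the paper) and deposited raw counts per gene from featureCounts 1.6.3; annotation release, strand and treatment of mates were not given in the sources used here. The members and lists were chosen with earlier results of these data known. Counts were tested with edgeR 4.0.16 in R 4.3.3 (TMM scaling, filterByExpr at 10 counts per library and 15 in total, glmQLFit and glmQLFTest, Benjamini-Hochberg adjustment over 18186 to 20779 genes). Time courses used the 10 libraries of a genotype and region, genotype contrasts the 20 of a region and region contrasts all 40. DESeq2 1.42.0 was an alternative. CPM and RPKM were computed here from the counts, after TMM over 40 libraries, RPKM with the exon length deposited in the tables. All members were described in every comparison, and from each list up to 4 called genes with the largest change and an average log2 CPM of at least 1 could be named. The fits were tested on simulated data. Same-numbered proximal and distal libraries carry 1 animal label. The correlation of their replicate differences ranged from -0.313 to 0.842 over 10 pairs, with a median of 0.486 and 6 above 0.1. Over 180 other pairs of groups the median was 0.0404, the highest was 0.824 and 80 were above 0.1. WT day 100 replicates were kept as 2 libraries because their counts differed beyond sampling noise, which does not show that they came from 2 animals; their sum was an alternative. A day 50 group was not analysed here. The result for 1 gene of the S phase list is not reported here.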

Additional observations from a re-analysis of the deposited data

Results flagged for a closer look

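For 5 members in distal and 3 in proximal lung the change from day 120 to term differed between CF and WT, by the test of the difference itself (log2 change in CF minus that in WT, edgeR's quasi-likelihood test). In distal lung the values were -3.72 for E2F7 (adjusted p = 0.000393), -3.05 for E2F1 (0.00447), -2.72 for E2F8 (0.00334), -1.60 for E2F2 (0.0111) and -1.04 for E2F5 (0.00842). In proximal lung they were -3.64 for E2F7 (adjusted p = 0.0402), -2.94 for E2F8 (0.0118) and -1.84 for E2F2 (0.0204). In each case the change in CF was the lower one.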

How the results depend on the processing

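RLE scaling and thinning to equal depth left all 13 counts of called members within 1.5 times. No member difference called in the main fits turned its direction, and differences that were not called were not checked for this. With the study's limits the counts fell to 1 of 6 (intervals, CF distal), 0 of 3 (WT distal) and 0 of 7 (WT proximal), to 2 of 10 (CF against WT, distal) and 0 of 4 (proximal), to 1 of 5 and 0 of 3 (difference in change, distal and proximal), and over days to 3 of 8 (CF distal), 0 of 3 (CF proximal), 1 of 8 (WT distal) and 4 of 10 (WT proximal). DESeq2 gave 4 instead of 0 (intervals, CF proximal), 6 instead of 3 (WT distal), 7 instead of 4 (CF against WT, proximal) and 6 instead of 3 (over days, CF proximal). A fit of all 40 libraries gave 7 instead of 0 (intervals, CF proximal), 4 instead of 7 (WT proximal), 9 instead of 4 (CF against WT, proximal) and 8 instead of 3 (over days, CF proximal). Summing the WT day 100 libraries gave 4 instead of 7 (intervals, WT proximal), and no filter gave 1 instead of 0 (intervals, CF proximal). The cause was not tested.

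The replicate block gave 1 call instead of 3 over days in CF proximal lung, left the other 12 counts within 1.5 times and ended 3 member calls, those of E2F7 from day 100 to 120 in WT proximal lung, E2F7 in the proximal difference in change and RBL2 in proximal lung at term. Across days and genotypes the replicate numbers are not known to pair animals. Crossing the numbers of the regions at 3 conditions where their replicate differences correlated below -0.1, a choice made after seeing the data, gave 0 calls between regions.

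With 1 library left out, the counts ranged from 0 to 6 (intervals, CF proximal), 0 to 8 (WT distal), 4 to 8 (WT proximal), 5 to 12 (CF against WT, distal), 1 to 9 (proximal), 0 to 1 (regions, 1 animal left out), 4 to 7 (difference in change, distal), 0 to 6 (proximal), and over days from 0 to 5 (CF proximal) and 6 to 8 (WT proximal). A lone remaining library was assumed to vary like the other groups. CPM from total counts alone moved 54 of 200 group levels by more than 1 SD, and RLE scaling moved 4. The lowest counts were 47 for E2F1 and 48 for E2F8, so depth did not limit detection of any member.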
